A study of Homo sapiens with 8 samples.

Results

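HEK293T cells, an established line from human embryonic kidney, were treated with an siRNA against EDC4 (siEDC4) or with a control siRNA (siNC), and mRNA was sequenced. The comparison takes 4 of the 8 libraries of the series, namely siEDC4 1 and 2 and siNC 1 and 2, by the read columns that carry those names in the A-to-I editing table of the knockdown. The reads are used as gene abundance alone. All 4 libraries came from cells that carried RNA editing enzymes directed to processing bodies, and from 500 ng of total RNA per library, with the RNA type labelled polyA. The other 4 libraries held sorted processing bodies and cytosol and are used below to class genes. Neither the siRNA sequences nor the time after transfection is stated in the labels. Whether siEDC4 1 and 2 received the same siRNA, and whether libraries of a group came from separate cultures is not stated either. P-values therefore measure the spread between these libraries, which may be technical.

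Processing bodies (P-bodies) are cytoplasmic granules that gather repressed mRNA with the enzymes of mRNA decay. In the main 5′ to 3′ decay route the poly(A) tail is shortened by the CCR4-NOT and PAN2-PAN3 deadenylases, the cap is removed by DCP2 with its partners DCP1A and DCP1B, and the exonuclease XRN1 degrades the body of the mRNA. EDC4 is a large scaffold of the decapping complex that holds DCP1 and DCP2 together and is needed for visible P-bodies in many cell lines. How mRNA levels differ once such a scaffold is depleted is the question that the comparison addresses.

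The table listed 10643 genes, of which 10636 are protein coding in GENCODE v29, and 10642 were tested. Why a gene is listed is not given, so abundance of other genes is not analysed here. No mitochondrially encoded mRNA was listed. Library totals over these genes ranged from 5697417 to 6251787 reads. Levels are given as CPM, reads scaled to a common library size after TMM normalization, in which 1 read was worth 0.1605 to 0.1755 CPM. The siNC libraries differed by no more than sampling noise (chi-square over its degrees of freedom 1.02, p = 0.0624) and were counted as 1 sample with summed reads. The siEDC4 libraries differed from each other well beyond it (3.46). That was about as much as siEDC4 2 differed from siNC 1 (3.55) and siNC 2 (3.45). For siEDC4 1 the values were 4.34 against siNC 1 and 4.24 against siNC 2. The spread behind the tests came from the siEDC4 pair and was shared over all genes. Of genes that mark HEK293T cells 11 of 15 were listed, among them GATA2, SOX2, LIN28B and CDH2, against 2 of 11 fibroblast markers (COL1A1 and ACTA2) and 3 of 11 epithelial tumour line markers (KRT8, KRT18 and ESRP2).

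EDC4 itself was low in both knockdown libraries. It lies at chr16:67873052-67884499 on the plus strand (hg38, GENCODE v29). It stood at 40.3 CPM (245 reads) in siEDC4 1 and 32.7 CPM (186 reads) in siEDC4 2, against 109.8 CPM (684 reads) in siNC 1 and 106 CPM (609 reads) in siNC 2. The groups did not overlap, and EDC4 had the smallest p of all genes tested. The mean of 36.5 ± 5.40 CPM (SD, n = 2) was 33.9% of the siNC level, with 37.3% left in siEDC4 1 and 30.2% in siEDC4 2. In edgeR's quasi-likelihood test with Benjamini-Hochberg adjustment, used for every adjusted p below, EDC4 fell by 1.56 on the log2 scale (SE 0.14, adjusted p = 2.63e-25). In bulk RNA, a loss in every cell and a complete loss in some of the cells cannot be told apart.

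The other mRNAs of the decapping machinery differed little from the control. Of 17 listed genes for decapping and 5′ decay, 1 passed the test (EDC4) and 16 did not, and the list's median log2 difference was -0.05 against -0.0031 for all genes tested. DCP1A, the cofactor that activates DCP2, stood at 118 and 139 CPM after siEDC4 and at 149 and 159.9 CPM after siNC. All DCP1A values after siEDC4 lay below those after siNC, with a log2 difference of -0.27 ± 0.12 (SE, adjusted p = 0.522), and 0.0157 in a fit with the labels' batch number as a replicate block. The block fit counts the siNC libraries as 2 samples, although they differed by no more than sampling noise. Its adjusted p-values, here and below, therefore rest partly on the small spread of that pair and do not replace those of the main fit. The decapping enzyme DCP2 itself stood at 143 and 155 CPM against 151 and 138 CPM, with overlapping groups and a log2 difference of 0.04 ± 0.11 (SE, adjusted p = 0.991). XRN1 was nearly level, at 104 and 105 CPM against 104 and 105 CPM. The activators PATL1 (log2 difference 0.0027 ± 0.12, SE) and EDC3 (0.16 ± 0.12) did not pass either. Among the 7 LSM genes of the ring that binds the shortened tail and its relatives on this list (LSM1 to LSM7), log2 differences ran from -0.12 for LSM5 to 0.04 for LSM6.

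Among the repressor proteins that build P-bodies with EDC4, no gene was called and LSM14A came nearest. LSM14A, which represses translation with DDX6, stood at 724 and 753 CPM after siEDC4 and at 582 and 597 CPM after siNC. The groups did not overlap, and the log2 difference of 0.33 ± 0.11 (SE) missed the threshold (adjusted p = 0.187) but passed with the replicate block (4.71e-05). The helicase DDX6 stood at 1452 and 1474 CPM against 1332 and 1336 CPM, also without overlap. EIF4ENIF1, the 4E-T protein that links the cap-binding protein to P-bodies, overlapped between groups at 55.8 and 49.0 CPM against 51.0 and 49.6 CPM. None of the 19 listed repressors passed by adjusted p, 1 was higher (LSM14A) and 1 lower (GIGYF1) at an unadjusted p under 0.05, and the median log2 difference was 0.0016. Over all genes tested, 0.564% were called in either direction by adjusted p, and 7.39% had an unadjusted p under 0.05 (4.49% higher and 2.89% lower).

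**Figure D1:**
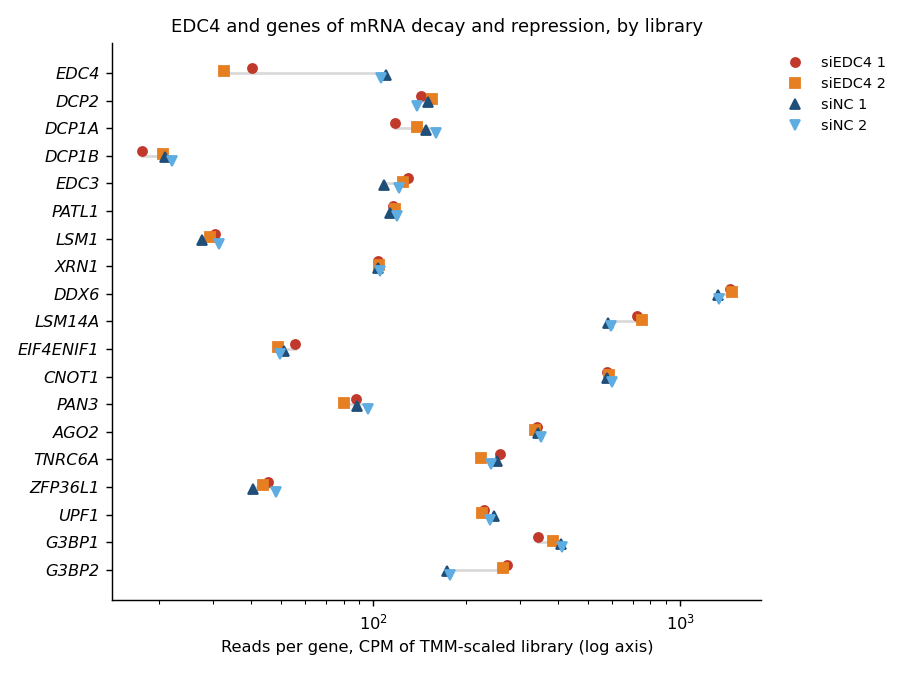
Reads of EDC4 and 18 genes of decay, repression and stress granules in each of the 4 libraries, in CPM on a log axis, with a grey line over each gene's range. EDC4 stands at 40.3 and 32.7 CPM in the siEDC4 libraries and at 109.8 and 106 CPM in the siNC libraries, and G3BP2 at 274 and 266 against 173 and 177 CPM.

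Genes of the steps before and beside decapping had no adjusted call. Of 20 genes for deadenylation none passed by adjusted p and 1 was higher at an unadjusted p under 0.05, with a median log2 difference of -0.06. That gene was NOCT, a relative of the CCR4 deadenylases named for its night-time expression, at 23.8 and 27.4 CPM against 19.9 and 16.5 CPM (0.48 ± 0.20, SE, adjusted p = 0.459, and 0.0482 with the replicate block). CNOT1, the scaffold of the CCR4-NOT complex, stood at 576 and 585 CPM against 577 and 601 CPM. Of 16 genes for microRNA silencing 3 were lower at an unadjusted p under 0.05 (18.8%, against 2.89% of all genes) and none passed by adjusted p. They were TRIM71 (log2 difference -0.38 ± 0.14, SE), the Argonaute AGO3 (-0.28 ± 0.12) and XPO5 (-0.24 ± 0.11), the exporter of microRNA precursors, and each passed with the replicate block (adjusted p = 0.0119, 0.0318 and 0.0303). Of 16 nonsense-mediated decay factors 2 were lower at that level (12.5%, UPF3A and CASC3), and of 11 proteins that bind AU-rich elements also 2 (18.2%, RC3H1 and ZFP36L2). Neither list had an adjusted call, while CASC3 and RC3H1 passed with the replicate block (adjusted p = 0.0266 and 0.0196). No gene of the 17 for the exosome and 3′ decay reached an unadjusted p under 0.05.

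Over all genes the change was small in number. 46 genes were higher after siEDC4 (0.432% of 10642) and 14 were lower (0.132%). Both siEDC4 libraries lay above both siNC libraries in 46 of the 46 higher genes and below them in 13 of the 14 lower ones, where 24.5% and 23.9% of all genes did so. The calls were made on the same 4 libraries, so this separation is no separate evidence for them. 5 of the higher genes passed 2-fold, namely ALDH1A1, ARHGDIG, IL23R, CAPG and CCDC80, and of the lower ones EDC4 alone. Without EDC4, the lower genes fell by 0.40 to 0.66 on the log2 scale. Adjusted p was 0.0477 for the last gene inside the threshold and 0.0509 for the first outside it.

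The number called differed widely between fits. With the batch number as a replicate block and 4 libraries, 303 genes were higher (2.85%) and 218 lower (2.05%), among them all 60 of the genes above. With the siNC libraries counted as 2 samples there, the biological coefficient of variation was 4.88%, against 7.02% in the main fit. DESeq2 called 2 higher (TPM4 and GANAB) and 1 lower (EDC4), with 120 genes at an unadjusted p under 0.05. Without siNC 1 there were 24 higher and 8 lower genes. Without siEDC4 1 or siEDC4 2, where the spread came from the siNC pair alone, there were 791 and 1059 higher and 815 and 1068 lower.

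**Figure D2:**
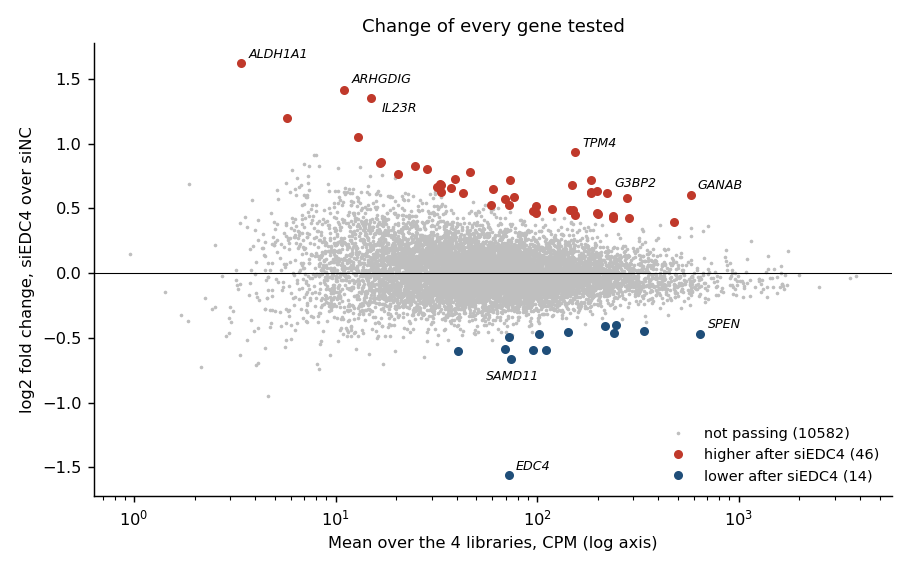
Each point is 1 of the 10642 genes tested, with its mean over the 4 libraries in CPM (log axis) against its log2 fold change. The 46 higher genes are red, the 14 lower genes blue and the rest grey. TPM4 and G3BP2 stand out among the well-covered higher genes, and EDC4 lies apart at -1.56.

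The clearest rise among well-covered genes was in TPM4, a tropomyosin that wraps actin filaments (chr19:16067021-16103002). TPM4 stood at 206 and 198 CPM after siEDC4 and at 107 and 105 CPM after siNC, a rise of 0.94 ± 0.12 (log2, SE, adjusted p = 1.48e-11). Its siEDC4 values lay close together and far from the control, and the call stood in DESeq2 too (adjusted p = 6.19e-05). RHOB, an endosomal small GTPase with a short-lived mRNA, stood at 210 and 250 CPM against 141 and 139 CPM and rose by 0.72 ± 0.12 (SE, adjusted p = 1.85e-06). ITGA5, the alpha chain of the fibronectin receptor, stood at 88.3 and 83.2 CPM against 54.1 and 65.3 CPM and rose by 0.53 ± 0.14 (SE, adjusted p = 0.0254). TPM4 and ITGA5 were 2 of the 43 tested genes on the list for the actin cytoskeleton and adhesion, of which 5 were higher (11.6%, against 4.49% of all genes) and none lower at an unadjusted p under 0.05.

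GANAB, PRDX4 and EMC6 encode proteins of the endoplasmic reticulum (ER). GANAB, the catalytic subunit of the glucosidase that trims glycans there, stood at 681 and 712 CPM against 457 and 458 CPM and rose by 0.61 ± 0.11 (SE, adjusted p = 4.74e-05). GANAB was the most abundant of the 46, and its groups were far apart for their spread. It was singled out after its values were seen, as it lay outside the rule for named genes. PRDX4, a peroxiredoxin that uses peroxide in the ER, stood at 179.7 and 187 CPM against 113 and 116 CPM and rose by 0.68 ± 0.12 (SE, adjusted p = 1.75e-05). EMC6, a subunit of the complex that inserts membrane proteins, stood at 39.8 and 41.8 CPM against 24.7 and 26.0 CPM and rose by 0.69 ± 0.17 (SE, adjusted p = 0.0221).

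Secreted proteins and receptors were among the largest rises, most of them at low levels. IL23R, a chain of the interleukin-23 receptor, stood at 26.0 and 17.0 CPM against 8.99 and 7.84 CPM (158 and 97 reads against 56 and 45) and rose by 1.35 ± 0.24 (SE, adjusted p = 1.9e-05). The matrix-associated protein CCDC80 stood at 17.8 and 17.2 CPM against 7.70 and 9.23 CPM and rose by 1.05 ± 0.24 (SE, adjusted p = 0.00662). BMP6, a ligand of the TGF-beta superfamily, stood at 31.1 and 32.5 CPM against 16.7 and 19.2 CPM, a rise of 0.83 ± 0.19 (SE, adjusted p = 0.00726). In each of these genes the lowest siEDC4 value was over the highest siNC value, which the rule for naming the largest rises required. SELENOP, the carrier of selenium in plasma, stood at 36.8 and 35.3 CPM against 20.4 and 20.9 CPM, a rise of 0.81 ± 0.18 (SE, adjusted p = 0.00564). TFPI, an inhibitor of the tissue factor pathway of clotting, stood at 19.9 and 23.0 CPM against 12.2 and 11.5 CPM (0.85 ± 0.22, SE, adjusted p = 0.0295). LPL, the lipase of lipoprotein particles, was uneven between the siEDC4 libraries, at 26.0 and 17.6 CPM, and stood at 13.0 and 10.97 CPM after siNC (0.86 ± 0.22, SE, adjusted p = 0.0254, and 0.54 without siEDC4 1). The MHC class II chain HLA-DPA1 stood at 54.6 and 43.0 CPM against 26.8 and 32.6 CPM (0.73 ± 0.17, SE, adjusted p = 0.00572), and reads of HLA genes can be split between similar copies.

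The remaining large rises were intracellular. ARHGDIG, an inhibitor of small GTPases, stood at 16.0 and 16.2 CPM against 4.65 and 7.49 CPM (97 and 92 reads against 29 and 43) and rose by 1.41 ± 0.26 (SE, adjusted p = 6.24e-05). HSDL2, a member of the short-chain dehydrogenases, stood at 90.3 and 91.1 CPM against 51.4 and 59.0 CPM and rose by 0.72 ± 0.14 (SE, adjusted p = 0.000121). For ARHGDIG and HSDL2 the siEDC4 values were nearly equal and the siNC values were farther apart. MED11, a subunit of the Mediator complex of transcription, stood at 24.8 and 26.7 CPM against 15.4 and 14.8 CPM (0.77 ± 0.21, SE, adjusted p = 0.0417).

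Of a pair of paralogous stress granule scaffolds, G3BP2 rose and G3BP1 did not pass. G3BP2, an RNA-binding protein on which stress granules are built (chr4:75641849-75724589), stood at 274 and 266 CPM after siEDC4 and at 173 and 177 CPM after siNC, a rise of 0.62 ± 0.11 (log2, SE, adjusted p = 6.24e-05). G3BP1 stood at 344 and 386 CPM against 409 and 411 CPM, below the control in both libraries, with a log2 difference of -0.17 ± 0.11 (SE, adjusted p = 0.828). Whether the 2 differences differ from each other was not tested. Of 15 stress granule genes G3BP2 was the only one called by adjusted p. FMR1, the fragile X protein, was the only one lower at an unadjusted p under 0.05 (-0.28 ± 0.11, SE), and it passed with the replicate block (adjusted p = 0.00525).

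ADARB1, which encodes an adenosine deaminase that edits RNA, rose by 0.40 ± 0.11 (SE, adjusted p = 0.0465), from 408 and 416 CPM to 523 and 563 CPM. The cells carried editing enzymes of their own, and the share of these reads that came from an editor construct is not given. ADARB1 was singled out after its values were seen.

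The falls other than EDC4 were modest. The transcriptional corepressor SPEN, with the most reads of the 14, stood at 524 and 560 CPM after siEDC4 and at 748 and 751 CPM after siNC, and fell by 0.47 on the log2 scale (SE 0.10, adjusted p = 0.00446). PIDD1, a death-domain scaffold that activates caspase-2 and is induced by p53, stood at 88.6 and 87.8 CPM against 134 and 132 CPM and fell by 0.60 (SE 0.12, adjusted p = 0.000711). SPEN and PIDD1 had siEDC4 values close together and well below the control. SAMD11 stood at 66.1 and 48.8 CPM against 90.7 and 91.3 CPM (fell by 0.66, SE 0.13, adjusted p = 0.000577). STMN3, a stathmin that binds tubulin, stood at 34.0 and 30.2 CPM against 48.8 and 48.6 CPM (fell by 0.60, SE 0.16, adjusted p = 0.0437). KIF18B, a kinesin of the mitotic spindle, stood at 95.1 and 76.7 CPM against 122 and 116 CPM (fell by 0.47, SE 0.12, adjusted p = 0.0361). NOL9, a kinase of ribosomal RNA processing, stood at 54.9 and 65.1 CPM against 85.1 and 84.0 CPM (fell by 0.49, SE 0.13, adjusted p = 0.0442). RNF187, QSER1, COL2A1 and CYFIP2, the latter a subunit of the WAVE complex that promotes actin branching, fell by 0.40 to 0.46. The size of 3 of these falls moved with the library: without siEDC4 1 the log2 difference was -0.24 for RNF187, -0.26 for QSER1 and -0.27 for COL2A1, and without siEDC4 2 it was -0.72, -0.57 and -0.67. RNF187 stood at 170 and 237 CPM against 276 and 284 CPM, and QSER1 at 189 and 234 CPM against 284 and 276 CPM.

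For 3 of the lower genes the siEDC4 libraries were far apart. FKBP4, a co-chaperone of HSP90, stood at 164 CPM in siEDC4 1 and 413 CPM in siEDC4 2, against 403 and 383 CPM after siNC. Only siEDC4 1 was low, yet FKBP4 was called lower at -0.45 ± 0.11 (SE, adjusted p = 0.0127, and 1.04e-12 with the replicate block). Without siEDC4 1 the log2 difference was 0.07. CCDC86, a nucleolar protein, stood at 74.5 and 35.3 CPM against 82.7 and 83.1 CPM. It was called at -0.59 ± 0.14 (adjusted p = 0.00726), but gave -0.15 without siEDC4 2. TM7SF3, a membrane protein, stood at 98.2 and 54.4 CPM against 115 and 116 CPM. It was called at -0.59 ± 0.13 (adjusted p = 0.00183), and gave -0.23 without siEDC4 2. A fit without a siEDC4 library takes its spread from the siNC pair alone, so only its log2 difference is given here.

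Other genes were also far apart between the siEDC4 libraries. Of 9149 genes at a mean of at least 20 CPM, 63 differed by over 1.5-fold and 7 by over 2-fold between siEDC4 1 and 2, against 1 and 0 between siNC 1 and 2. The inhibitors of basic helix-loop-helix factors ID3 and ID2, both targets of BMP signalling, were low in siEDC4 2 alone. ID3 stood at 38.0 CPM in siEDC4 1 and 6.85 CPM in siEDC4 2, against 25.5 and 26.5 CPM after siNC, and ID2 at 52.8 and 19.7 CPM against 44.1 and 46.7 CPM. SMAD6, an inhibitor of the same pathway, stood at 44.6 and 23.2 CPM against 43.0 and 38.0 CPM. In siEDC4 1 alone the small GTPase RAB15 was low, at 30.6 CPM against 69.2 CPM in siEDC4 2 and 62.0 and 57.5 CPM after siNC, as was the tubulin cofactor TBCA, at 55.6 CPM against 102, 109.9 and 97.9 CPM. These 12 genes were chosen for the difference, so their values are a description.

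**Figure D3:**
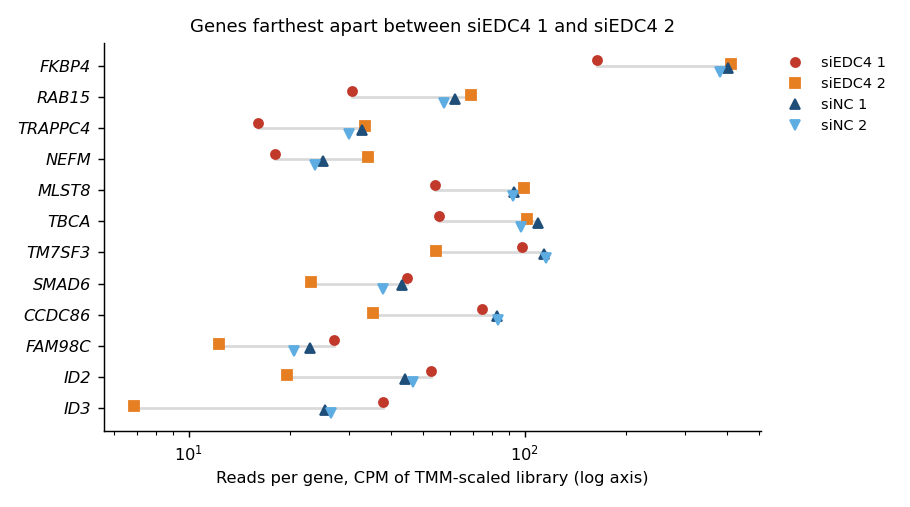
The 12 genes farthest apart between siEDC4 1 and siEDC4 2 at a mean of at least 20 CPM, 6 in each direction, with reads in CPM on a log axis and a grey line over each gene's range. The siNC libraries lie closer together than the siEDC4 libraries in all 12 genes. FKBP4 is at 164 CPM in siEDC4 1 and ID3 at 6.85 CPM in siEDC4 2.

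Extracellular matrix genes leaned upward. Of 45 tested, 3 were higher by adjusted p (LAMB2, HSPG2 and EMILIN3) and 1 lower (COL2A1). At an unadjusted p under 0.05, 17 were higher (37.8%, against 4.49% of all genes) and 1 lower, and the median log2 difference was 0.13. Both siEDC4 libraries lay above both siNC libraries in 29 of the 45, where 24.5% of all genes did so. With the replicate block 14 were higher and 1 lower. EMILIN3, an elastic-fibre glycoprotein, stood at 51.5 and 52.8 CPM against 33.9 and 34.0 CPM and rose by 0.62 ± 0.16 (SE, adjusted p = 0.0268). LAMB2, a laminin chain of basement membranes, stood at 317 CPM in siEDC4 1 and 229.6 CPM in siEDC4 2, against 196 and 207 CPM, and rose by 0.44 ± 0.11 (SE, adjusted p = 0.0234), but by 0.19 without siEDC4 1. HSPG2, the basement membrane proteoglycan perlecan, stood at 69.4 and 69.5 CPM against 48.3 and 48.1 CPM and rose by 0.53 ± 0.14 (SE, adjusted p = 0.0469). COL2A1, the chain of type II collagen, fell instead, from 157 and 171 CPM to 103 and 136 CPM (log2 difference -0.45 ± 0.11, SE, adjusted p = 0.0224). The type IV collagen COL4A1 (0.41 ± 0.13, SE) and the laminin LAMB1 (0.42 ± 0.12) missed the adjusted threshold (adjusted p = 0.168 and 0.071, and 0.000952 and 4.71e-05 with the block). The fibroblast markers COL1A1 and ACTA2, the 2 listed of 11, summed to 95.1 and 91.1 CPM after siEDC4 and 93.7 and 104 CPM after siNC. They went opposite ways: ACTA2 was lower at an unadjusted p under 0.05 (-0.31 ± 0.16, SE), and COL1A1 did not pass (0.11 ± 0.15). The 3 listed epithelial markers summed to 197 and 211 CPM against 165 and 161 CPM. Of these, KRT8 (0.46 ± 0.14) and KRT18 (0.27 ± 0.13) were higher at that level. The part of either in the matrix genes was not tested.

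Genes of the unfolded protein response, the programme by which the ER adds folding capacity, also leaned upward without an adjusted call. Of 23 tested, 7 were higher (30.4%, against 4.49% of all genes) and none lower at an unadjusted p under 0.05, and these 7 passed with the replicate block. The median log2 difference was 0.14, at 0.17 in siEDC4 1 and 0.16 in siEDC4 2. CALR, the ER lectin calreticulin, stood at 798 and 790.5 CPM after siEDC4 and at 616 and 622 CPM after siNC (0.36 ± 0.11, SE, adjusted p = 0.0889, and 2.47e-06 with the block). HSPA5, the ER chaperone BiP, stood at 654 and 652 CPM against 520.0 and 505 CPM (0.35 ± 0.11, SE, adjusted p = 0.127, and 1.11e-05 with the block). In both genes the libraries of a group were nearly equal and the groups did not overlap. SDF2L1 (0.49 ± 0.14), XBP1 (0.33 ± 0.13), MANF (0.31 ± 0.13), HSP90B1 (0.29 ± 0.11) and PDIA3 (0.24 ± 0.11) made up the rest of the 7, while HERPUD1 (0.08 ± 0.16) and SEL1L (-0.18 ± 0.12) did not. The ER stress response element, to which ATF6 binds, reads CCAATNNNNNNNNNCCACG, and was searched on both strands of the 250 bases before to 50 bases after each gene's start in RefSeq's table for GRCh38.p14. It was found in 6 of the 21 list members with a promoter there (28.6%), in 12 of 8722 tested genes (0.138%) and in 22 of all 27305 promoters (0.0806%). The list was made of genes known in this response, so its share does not bear on siEDC4. Of the 6, CALR, HSPA5, HSP90B1 and XBP1 were among the 7 above. CANX (0.10 ± 0.10, SE) and CRELD2 (0.08 ± 0.15) were not. The element was found in none of the 36 higher genes with a promoter in the table. The promoters of the 2 most abundant genes of the 7 with the element are shown, chosen after their values were seen, with the element in capitals (its reverse complement in CALR).
HSPA5 promoter, chr9:125241294-125241593, minus strand: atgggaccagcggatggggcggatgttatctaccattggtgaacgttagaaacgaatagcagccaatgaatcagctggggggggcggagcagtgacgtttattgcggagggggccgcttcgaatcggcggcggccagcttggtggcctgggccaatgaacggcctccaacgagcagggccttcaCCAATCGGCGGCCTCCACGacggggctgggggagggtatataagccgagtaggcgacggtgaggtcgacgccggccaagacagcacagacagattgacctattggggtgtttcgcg
CALR promoter, chr19:12938359-12938658, plus strand: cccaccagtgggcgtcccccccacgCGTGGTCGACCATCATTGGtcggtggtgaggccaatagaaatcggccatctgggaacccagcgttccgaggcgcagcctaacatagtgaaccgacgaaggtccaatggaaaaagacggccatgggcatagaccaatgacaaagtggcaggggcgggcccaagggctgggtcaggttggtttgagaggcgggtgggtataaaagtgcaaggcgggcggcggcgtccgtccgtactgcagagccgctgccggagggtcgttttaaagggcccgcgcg

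The lists of p53 targets and of cell cycle and mitosis genes leaned downward, again without an adjusted call among their members. PIDD1 and KIF18B, called lower above, are on neither list. Of 23 p53 targets 8 were lower (34.8%, against 2.89% of all genes) and none higher at an unadjusted p under 0.05, and the median log2 difference was -0.22. With the replicate block 7 were lower. MDM2, the ubiquitin ligase that degrades p53, stood at 222 and 244 CPM against 293 and 302 CPM (-0.35 ± 0.11, SE, adjusted p = 0.139, and 8.04e-05 with the block). PHLDA3, an inhibitor of AKT, stood at 56.7 and 69.2 CPM against 88.6 and 86.0 CPM (-0.47 ± 0.13, SE, adjusted p = 0.0586, and 0.000111 with the block). CDKN1A, the cell cycle inhibitor p21 and a principal p53 target, was level, at 191 and 188 CPM against 192 and 191 CPM (-0.01 ± 0.11, SE). HEK293T cells carry the large T antigen, which binds p53.

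Of 53 genes of the cell cycle and mitosis 15 were lower (28.3%) and 1 higher at an unadjusted p under 0.05, with a median of -0.14, and 12 were lower with the replicate block. AURKA, a kinase of spindle assembly, stood at 92.8 and 84.8 CPM against 116 and 116 CPM (-0.38 ± 0.12, SE, adjusted p = 0.175, and 0.000907 with the block). CDC20, the activator of the anaphase-promoting complex, stood at 117 and 117 CPM against 149.9 and 148 CPM (-0.35 ± 0.12, SE, adjusted p = 0.203, and 0.000907 with the block). Genes of the G1/S step lay on both sides of the control: the log2 difference was 0.08 ± 0.15 (SE) for CCNE1, 0.08 ± 0.11 for MCM6, 0.08 ± 0.12 for E2F1, -0.30 ± 0.14 for E2F2, -0.19 ± 0.12 for CDT1 and -0.15 ± 0.11 for PCNA, and none of these passed by adjusted p. The 1 member higher at an unadjusted p under 0.05 was the G1 kinase CDK6 (0.33 ± 0.12, adjusted p = 0.286, and 0.00245 with the block). How fast the cells grew is not stated in the labels.

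**Figure D4:**
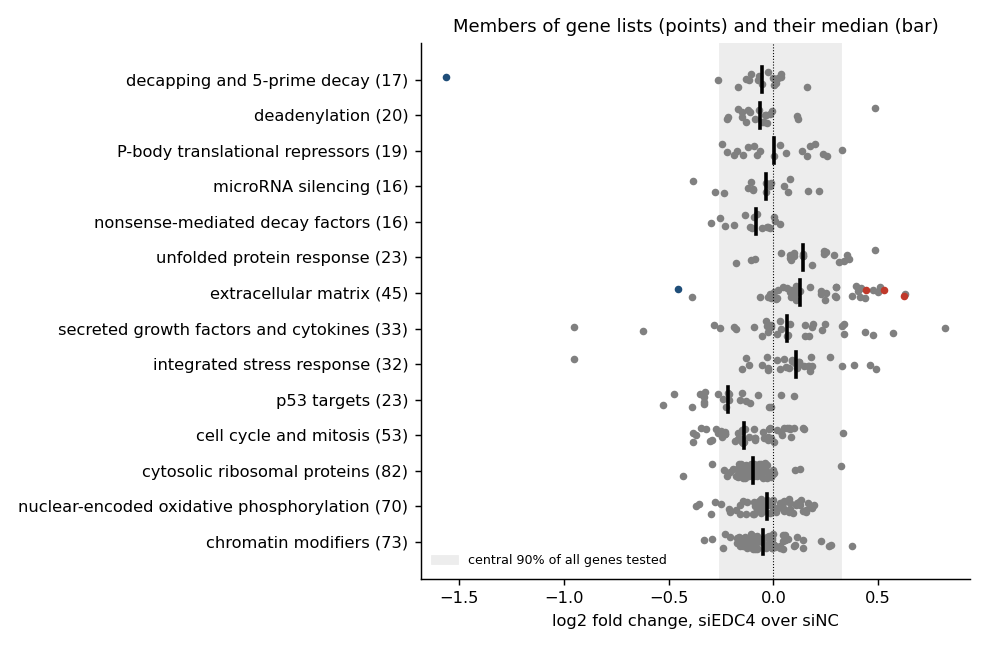
Members of 14 gene lists as points at their log2 fold change, with the number tested in brackets and the median as a bar. Red and blue mark members higher or lower by adjusted p, and the grey band holds the central 90% of all genes tested. The medians run from -0.22 for the p53 targets to 0.14 for the unfolded protein response.

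Ribosomal protein mRNAs, which are abundant and long-lived, were slightly below the control. None of 82 passed by adjusted p, 4 were lower (4.88%, against 2.89% of all genes) and none higher at an unadjusted p under 0.05, 5 were lower with the replicate block (RPL22, RPS29, RPS15, RPL21 and RPL18), and the median log2 difference was -0.10, uneven between siEDC4 1 (-0.16) and siEDC4 2 (-0.04). The genes with the most reads were close to level: EEF1A1 stood at 3689 and 3892 CPM against 3767 and 3956 CPM, EEF2 at 3414 and 3608 CPM against 3543 and 3669.9 CPM, and GAPDH at 1678 and 1701 CPM against 1710.4 and 1697 CPM. Reads of EEF1A1, RPL4 and RPS2 can be split with processed pseudogenes. HSP90AA1 was above the control in both libraries, at 1733 and 1981 CPM against 1656 and 1635 CPM.

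The list of classical short-lived mRNAs had no adjusted call. RHOB, whose mRNA is also short-lived and which was called higher above, is not on that list. Of 27 immediate early and AU-rich element mRNAs none passed by adjusted p, 3 were higher (11.1%, against 4.49% of all genes) and 1 lower (3.70%, against 2.89%) at an unadjusted p under 0.05, and the median log2 difference was -0.06. JUN, a component of the AP-1 factor, stood at 231 and 251 CPM against 197 and 195 CPM (0.30 ± 0.11, SE, adjusted p = 0.37), and ATF3 at 33.9 and 53.02 CPM against 29.5 and 32.4 CPM (0.49 ± 0.17, adjusted p = 0.223). Both passed with the replicate block (adjusted p = 0.00327 and 0.00992). ID1, another member, stood at 4.28 and 0.702 CPM against 4.65 and 2.26 CPM. Of 12 nonsense-mediated decay target mRNAs 1 was higher (ATF3) and none lower at that level. None of the 12 passed by adjusted p.

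The AU-rich nonamer TTATTTATT, a destabilizing element bound by proteins such as ZFP36, was searched on the sense strand of 1 annotated 3′ UTR per gene. It was found in 940 of 10555 tested genes (8.91%), in 3 of the 46 higher genes (6.52%, KIF1C, LEPR and LPL) and in 1 of 13 lower genes (7.69%, COL2A1). The median log2 difference was 0.0109 with the element and -0.0047 without it. A site each from 2 higher genes and from the lower gene is shown with the nonamer in capitals and 10 bases on either side, read from GENCODE v29 transcripts (hg38), as examples of called genes that carry the element in each direction.
KIF1C, chr17:5027423-5027451, plus strand: cccagcctatTTATTTATTtttttagaat
LEPR, chr1:65638326-65638354, plus strand: cataagtttaTTATTTATTcaacttttgg
COL2A1, chr12:47973181-47973209, minus strand: ggtgttctatTTATTTATTgtcttcctgt
KIF1C, a kinesin motor, rose by 0.42, LEPR, the leptin receptor, by 0.66, and COL2A1 fell by 0.45 on the log2 scale. The number of ATTTA pentamers made little difference either: the median log2 difference ran from -0.0003 in 3039 genes with none to -0.0088 in 1271 genes with 11 to 89.

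Base composition moved with the change in siEDC4 1. Over quintiles of transcript GC content the median log2 difference ran from -0.0158 in the lowest (31.8 to 41.1% GC) to 0.0247 in the highest (58.6 to 74.5%), in siEDC4 1 from -0.016 to 0.0505 and in siEDC4 2 from -0.0128 to 0.0003. The highest quintile held 15 of the higher and 8 of the lower genes. Median GC was 51.8% in the 46 higher genes and 59.9% in the 14 lower ones, against 48.6% in all. With the GC trend removed from each library 18 genes were higher and 4 lower. That fit also shared the spread over genes less strongly (prior degrees of freedom 29.3, infinite in the main fit). Genes could lose their call with little change in size. EMC6 went from 0.69 to 0.67 on the log2 scale, CYFIP2 from -0.41 to -0.40 and COL2A1 from -0.45 to -0.48. The part of GC in the lost calls was not tested. Median 3′ UTR length was 1080 bases in the higher, 599 in the lower and 1180 in all genes, and the median log2 difference over quintiles of that length stayed between -0.0088 and 0.0026.

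Genes were also classed by their place in the sort, where sorted P-bodies were compared with cytosol in other libraries of the series. There 5401 of 18745 genes were higher in sorted P-bodies (28.8%) and 5440 lower (29.0%), and fraction went together with library input (50 and 100 ng). Among 3755 of the tested genes higher in sorted P-bodies, 10 were higher after siEDC4 (0.266%, against 0.432% of all genes) and 1 was lower, with a median log2 difference of -0.0188. Among 3989 genes lower in sorted P-bodies, 21 were higher (0.526%) and 6 lower, with a median of 0.0125. Among 2895 that did not pass in the sort, 15 were higher and 7 lower, with a median of -0.0013. The 3 medians thus lay close to that of all genes (-0.0031). At an unadjusted p under 0.05 the shares higher after siEDC4 were farther apart. They were 2.64% of genes higher in P-bodies, 4.94% of those not passing and 5.92% of those lower, against 4.49% of all genes. The shares lower after siEDC4 were 2.96%, 3.25% and 2.58%, against 2.89% of all genes. The classes also differed in GC (medians 41.7% and 55.0%) and transcript length (4416 and 2410 bases) between genes higher and lower in P-bodies, and the part of these in the medians and shares was not tested.

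G3BP2 (sort log2 difference 0.80), HSDL2 (0.61), TFPI (0.68), LPL (0.54), LEPR (0.40) and PCDH10 (1.32) were among the 10 genes that were higher in sorted P-bodies and rose after siEDC4. TPM4 (-0.98), PRDX4 (-1.21), HLA-DPA1 (-1.37), EMC6 (-0.69) and ITGA5 (-0.68) rose although they were lower in sorted P-bodies. QSER1 (1.41) was the only gene higher in P-bodies that fell. EDC4 mRNA did not pass in the sort (0.22, adjusted p = 0.0984). With a 2-fold minimum added in the sort, 1 gene higher in P-bodies rose and 1 fell, and without cytosol 1 or cytosol 2 the number that rose was 6.

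**Figure D5:**
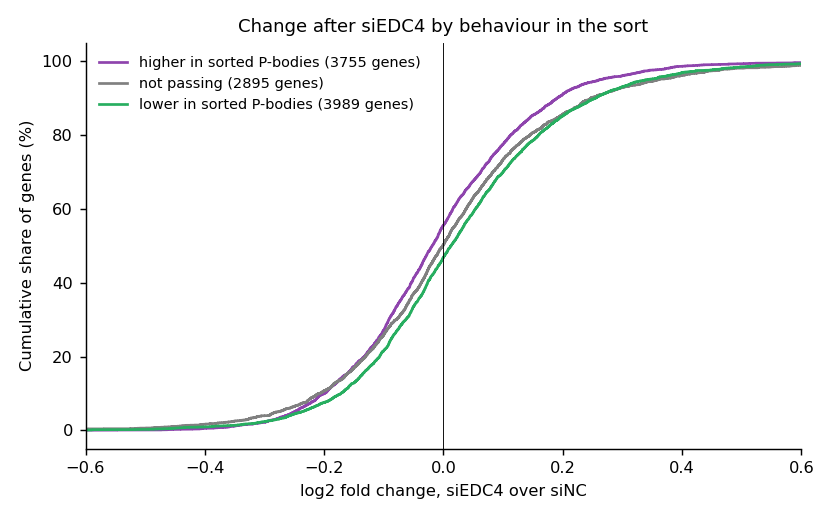
Cumulative share of genes by log2 fold change after siEDC4, for 3755 genes higher in sorted P-bodies, 2895 that did not pass there and 3989 lower. The curves lie close together, with medians of -0.0188, -0.0013 and 0.0125.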

How the data were processed

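The deposited reads per gene of the knockdown's editing tables were entered as estimated counts, since broken lines of ANK2, left out here, hold values that are not whole; every value used was whole and unnormalized. For the sort, the authors deposited raw counts per gene. The submitters' processing notes name cutadapt 1.18, STAR 2.7.9a, featureCounts 2.0.1 and hg38, without the step each served. Annotation, strand and the treatment of reads with several matches are not stated in the sources used here, so overlapping genes and near-identical copies are uncertain. The 40 columns of edited reads and scores were not used.

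Reads were tested with edgeR 4.0.16 (R 4.3.3): TMM scaling, filterByExpr, quasi-likelihood test, Benjamini-Hochberg adjustment over all genes, threshold 0.05. Each SE was derived from the test as the absolute log2 fold change divided by the root of its F statistic. The siNC reads were summed as 1 sample, which leaves 3 samples. Ratios per library, shown for single siEDC4 libraries, are against summed siNC with 0.5 CPM added. The labels give library 1 of both groups one batch number and library 2 of both groups another, which is the pairing behind the replicate block; deviations of same-numbered libraries from their group means correlated at -0.0298 over 10362 genes. Checks on simulated data were run first. DESeq2 1.42.0, other scalings, filters, tables and left-out libraries were alternatives.

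Of the genes higher and lower, the text names the 15 largest changes each way among those that passed, did not overlap between groups and reached 10 CPM in a group (13 falls met this), the 3 list members with the smallest p among those that passed, EDC4 and 8 partners, and genes among the 10 with the most reads; others are said to have been chosen after their values were seen, and members of lists are shown as examples. A gene under this rule and a marker list are not reported here. Members, lists and tests were chosen with earlier results of these data known.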

Additional observations from a re-analysis of the deposited data

How the results depend on the processing

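EDC4 stayed lower under every alternative run, from -1.42 to -1.73 on the log2 scale. The number of genes called did not hold. The 46 higher and 14 lower became 111 and 43 with 4 libraries, 303 and 218 with 4 libraries and the replicate block, 2 and 1 with DESeq2, and 18 and 4 with the GC trend removed. Library size alone gave 8 lower genes. With libraries left out in turn the higher genes numbered 24 to 1059 and the lower ones 8 to 1068. A fold of at least 1.5 kept 29 higher and 6 lower genes, where 2-fold kept 5 and 1. The block lost no call of the 51 genes under the naming rule and made 2 more (LSM14A and DCP1A). FKBP4 changed sign without siEDC4 1 and ran from -1.2606 to 0.0715 with libraries left out. With a 2-fold minimum in the sort, 1 gene higher in P-bodies rose, and of those lower in P-bodies 5 rose and 1 fell. With library size alone in the sort 6 genes higher in P-bodies rose. With a sort library left out, 6 to 10 of these rose and 1 to 2 fell. The cause of these changes was not tested, apart from the fits without a siEDC4 library, where the spread came from the siNC pair alone (biological coefficient of variation 0.988% against 7.02%). Depth limits low genes: ALDH1A1 rested on 40 and 21 reads against 11 and 9.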

Other observations

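Further groups are given by their counts. Of 15 genes of the LDL receptor and lipoprotein family 3 were higher (4.49% of all genes were) and none lower at an unadjusted p under 0.05, with no adjusted call. CLU, the extracellular chaperone clusterin, stood at 63.0 and 67.4 CPM after siEDC4 and at 44.9 and 45.6 CPM after siNC (0.53 ± 0.15, SE, edgeR adjusted p = 0.0586, and 0.000193 with the replicate block), and LRP1, an endocytic receptor, at 199 and 182 CPM against 149.6 and 150.0 CPM (0.35 ± 0.11, adjusted p = 0.185, and 0.000371 with the block). Of 33 secreted growth factors and cytokines 4 were higher (12.1%) and 2 lower (6.06%, against 2.89% of all genes) at that level. TGFB1 stood at 70.2 and 67.2 CPM against 47.0 and 52.3 CPM (0.47 ± 0.14, adjusted p = 0.113, and 0.000846 with the block), while GDF15, a stress-induced cytokine, stood at 2.80 and 3.51 CPM against 6.10 and 6.10 CPM (-0.95 ± 0.35, adjusted p = 0.299).

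Of 7 listed replication-dependent histone mRNAs, which normally lack a poly(A) tail, the median log2 ratio to siNC was 0.71 in siEDC4 1 and -0.11 in siEDC4 2. Among 292 genes named ZNF with a number, 148 lay above the control, 8 were higher (2.74%, against 4.49% of all genes) and 6 lower (2.05%, against 2.89%) at an unadjusted p under 0.05, and none passed by adjusted p.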
